A study of Mus musculus with 6 samples.

Results

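The 10 genes described here belong to the p53 pathway: Trp53, its inhibitors Mdm2 and Mdm4, and the target genes Pmaip1, Bbc3, Bax, Plk2, Gadd45a, Btg2 and Phlda3. They were chosen by symbol and make up 10 of the 22246 genes with FPKM values (reads per gene corrected for its length and for library depth), and all 10 were among the 11325 genes tested. The libraries came from mouse cells of strain C57BL/6 labelled as the line HL-1 from heart, 3 libraries from cells with shRNA-Smyd4 and 3 from cells with a control shRNA. An shRNA is a short hairpin RNA that directs degradation of a matching mRNA, and Smyd4 encodes a SET and MYND domain protein of the lysine methyltransferase family. Separate cultures or clones are not named in the labels, so the spread behind each p-value is that between these libraries and may be technical.

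The protein p53 is a transcription factor that accumulates after DNA damage and other stress and switches on genes of cell cycle arrest, apoptosis and DNA repair. Mdm2 is a ubiquitin ligase that marks p53 for degradation and is itself a target gene of p53, which closes a feedback loop, and the related protein Mdm4 blocks the activating domain of p53. By its label the line is HL-1, known as an atrial cardiomyocyte line from a mouse lineage in which the promoter of the atrial natriuretic factor gene drives the SV40 large T antigen, a viral protein that binds p53 and blocks its activity. Large T antigen was not analysed here. Much of the control of p53 acts on the protein, which mRNA levels do not show.

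In the libraries labelled Smyd4 shRNA, 7 of the 10 genes were lower than in the control libraries, 0 were higher and 3 did not pass the test (limma, Benjamini-Hochberg adjusted p under 0.05). The target genes that fell furthest were 4: Pmaip1 was 8.31-fold lower, Plk2 3.14-fold lower, Btg2 1.80-fold lower and Gadd45a 1.63-fold lower. Mdm2 fell by 24.3% and Trp53 itself by 15.2%, while the pro-apoptotic genes Bax and Bbc3 did not pass. Changes were widespread in this comparison: 48.3% of all tested genes passed in either direction, 25.1% higher and 23.3% lower, and the same test without adjustment would have added 1 of the 10 genes, Mdm4, as higher. Falls of at least 1.5-fold on the log2(FPKM + 0.5) scale were called for 4.87% of all tested genes and for 4 of the 10, and rises of that size for 2.04% of all tested genes and 0 of the 10. On whole reads recovered from the deposited values, 7 of the 10 were lower and 1 higher in edgeR, which called 49.5% of its genes, 26.3% as lower, and also in DESeq2, which called 32.7%. The median log2 change was -0.31 over the 10 genes and 0.02 over all tested genes.

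The label and the cells were checked first. Smyd4 mRNA stood at 12.6, 12.3 and 11.9 FPKM in the libraries labelled Smyd4 shRNA, against 12.5, 12.8 and 13.5 FPKM in the control libraries, with a log2 change of -0.07 ± 0.04 (standard error; limma, adjusted p = 0.17; exact two-sided permutation p = 0.2, where 0.1 is the smallest p that 3 against 3 allows). The groups overlapped, so every direction below refers to the label and not to a measured fall of Smyd4. Of the 2 atrial cardiomyocyte markers tested, Tnnt2 was higher and Gja1 did not pass, which is 50% called, against 48.3% of all tested genes. Tnnt2 stood at 11.65 FPKM in the labelled libraries and 7.11 FPKM in the controls (limma, adjusted p = 6.2e-06). Of 8 listed atrial cardiomyocyte markers, 7 were in the table, and Nppa, the gene of atrial natriuretic factor, was not. Myh6, Actc1 and Ryr2 lay under 0.1 FPKM in every library, as Myl7 and Myl4 did under 1 FPKM. The summed level of that list was 155 to 159 FPKM in the labelled libraries and 152 to 154 FPKM in the controls, nearly all of it Gja1, a gap junction gene that many cell types express. The levels of Myh6, Actc1, Ryr2, Myl7 and Myl4 go against the label of an atrial cardiomyocyte line in all 6 libraries, while that of Tnnt2 does not. The background given on HL-1 and its large T antigen therefore holds only as far as the label does. Of 5 tested fibroblast markers 2 were higher and 2 lower, against 25.1% higher and 23.3% lower of all tested genes. Fibroblast markers summed to 270.0 to 282 FPKM in the labelled libraries, against 239 to 245 FPKM in the controls, with Thy1 and Lum under 0.1 FPKM throughout. The collagen genes Col1a1, Col1a2 and Col3a1 make up most of that sum, while Dcn, which encodes the matrix proteoglycan decorin, fell to 1.73 FPKM, against 26.2 FPKM in the controls (limma, adjusted p = 9.2e-08), and the receptor gene Pdgfra to 2.94 FPKM, against 4.35 FPKM in the controls (limma, adjusted p = 0.00014). Skeletal muscle markers summed to 7.53 to 8.26 FPKM in the labelled libraries, against 34.9 to 36.2 FPKM in the controls. All 3 of them that were tested were lower, against 23.3% of all tested genes. Myod1, a myogenic transcription factor, fell to 5.31 FPKM, against 18.8 FPKM in the controls (limma, adjusted p = 1.4e-06). Macrophage markers summed to 21.4 to 23.2 FPKM in the labelled libraries and 29.2 to 30.6 FPKM in the controls, most of it Cd14 (18.6 FPKM in the labelled libraries and 27.9 FPKM in the controls), with Ptprc and Adgre1 under 0.1 FPKM. The 4 endothelial markers in the table stayed under 1 FPKM in every library. Replicate 3 of the labelled libraries had the fewest reads of the 6, 20755667 against 23414417 to 26387534 in the others, and the highest Lyz2 level, 3.74 FPKM against 0.187 to 0.781 FPKM. It also had the most reads of the endothelial genes Pecam1 (15, against 1 to 7 in the others), Cdh5 (26, against 2 to 12) and Kdr (10, against 0 to 2) and of the leukocyte gene Ptprc (7, against 0). Without this library 6 of the 10 p53 genes were called lower, and the call that was lost was that of Phlda3. The share of all tested genes called in that refit is not given here. The part of other cell types in the results was not tested, and fewer cells of a type and less RNA per cell cannot be told apart in such bulk samples.

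**Figure D1:**
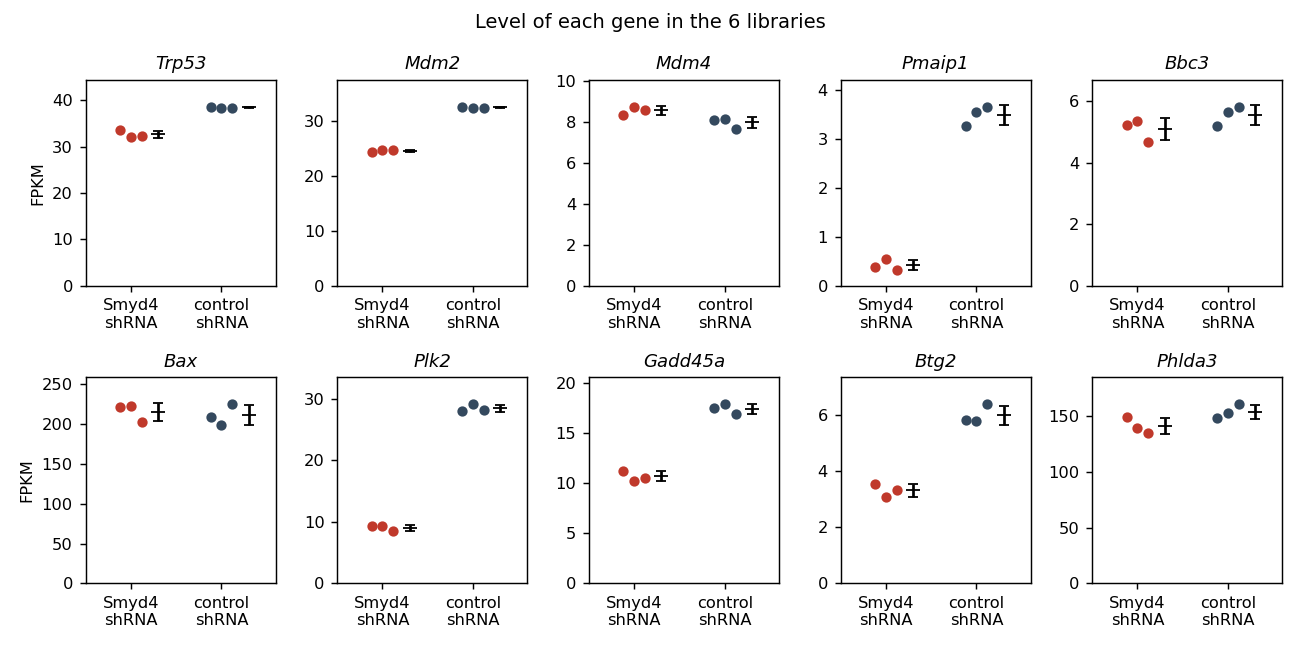
FPKM of each of the 10 genes in the 6 libraries, with the 3 libraries labelled Smyd4 shRNA in red on the left and the 3 control libraries in dark blue on the right of each panel; bars give the mean ± SD (n = 3). The groups stand apart for Trp53, Mdm2, Mdm4, Pmaip1, Plk2, Gadd45a and Btg2 and overlap for Bbc3, Bax and Phlda3. They also stand apart in 57.8% of all tested genes.

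Trp53, on chromosome 11 from 69580359 to 69591873 of GRCm38, had 33.6, 32.1 and 32.2 FPKM in the libraries labelled Smyd4 shRNA, against 38.7, 38.4 and 38.3 FPKM in the controls. All 3 labelled libraries lay below all 3 controls, and the mean fell to 32.6 ± 0.836 FPKM, against 38.5 ± 0.172 FPKM (SD, n = 3 each), a log2 difference of -0.23 ± 0.03 (standard error; limma, adjusted p = 0.00024). The gene rested on 2700 to 3552 reads per labelled library and 3685 to 3931 per control library. Among the 7833 genes that averaged 5 FPKM or more, the 3 whose log2 values over the 6 libraries lay nearest to those of Trp53, each centred on its control mean, were Maea, Selenon and Tln1, with root mean square differences of 0.00997, 0.0118 and 0.0136. The p53 relatives Trp63 and Trp73, which encode transcription factors of the same family, lay under the filter of 1 FPKM and were not tested in limma. Trp63 averaged 0.280 ± 0.0375 FPKM in the labelled libraries and 0.487 ± 0.0570 FPKM in the controls (SD, n = 3 each), on 53 to 60 and 91 to 110 reads, and edgeR called it lower (adjusted p = 8.7e-05). Trp73 stayed under 0.1 FPKM in every library.

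Mdm2, on chromosome 10 from 117688888 to 117710758, had 24.3, 24.7 and 24.6 FPKM in the libraries labelled Smyd4 shRNA, against 32.6, 32.3 and 32.4 FPKM in the controls. The replicates lay close together in both groups, and the groups did not overlap. The log2 difference was -0.39 with a 95% interval from -0.45 to -0.34 (limma, adjusted p = 6.1e-06). Mdm4, on chromosome 1, had 8.36, 8.76 and 8.58 FPKM in the labelled libraries, against 8.12, 8.15 and 7.68 FPKM in the controls. The groups did not overlap, as in 57.8% of all tested genes, but the difference of 0.10 ± 0.04 on the log2 scale did not pass in limma (adjusted p = 0.071; 95% interval 0.01 to 0.18). It passed in edgeR (adjusted p = 0.022) and DESeq2 (adjusted p = 0.044) on whole reads recovered from the deposited values and after quantile normalization in limma (adjusted p = 0.039). Mdm4 overlaps Gm29257 on the opposite strand, and the sources used here do not say whether counting used strand. The ratio of Mdm2 to Mdm4 FPKM was 2.91, 2.82 and 2.87 in the labelled libraries, against 4.01, 3.97 and 4.22 in the controls. That of Mdm2 to Trp53 was 0.724, 0.771 and 0.764 in the labelled libraries, against 0.843, 0.841 and 0.845 in the controls.

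Pmaip1 encodes Noxa, a BH3-only protein that neutralises the survival protein Mcl1. It had 0.390, 0.538 and 0.329 FPKM in the libraries labelled Smyd4 shRNA, against 3.25, 3.54 and 3.65 FPKM in the controls, so the highest labelled value lay far below the lowest control. Behind these values stood 18 to 36 reads per labelled library and 206 to 245 per control library. The log2 difference was -2.12 ± 0.10 (standard error) on the log2(FPKM + 0.5) scale (limma, adjusted p = 1.8e-06), the 51st lowest of the 11325 tested genes, and -3.04 in edgeR on recovered reads (adjusted p = 2.2e-16), since the added 0.5 FPKM shrinks changes of genes at this level. Pmaip1 lies on chromosome 18 and was the least expressed of the 10 genes in both groups.

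Bbc3 encodes Puma, a BH3-only protein that binds the survival members of the BCL2 family, and Bax encodes the effector that permeabilises the outer mitochondrial membrane. Bbc3 had 5.22, 5.38 and 4.69 FPKM in the libraries labelled Smyd4 shRNA, against 5.20, 5.65 and 5.83 FPKM in the controls. The groups overlapped, and the difference of -0.12 on the log2 scale had a 95% interval from -0.26 to 0.03 (limma, adjusted p = 0.16). Bax was the most abundant of the 10 genes per length, at 221, 223 and 203 FPKM in the labelled libraries and 209, 199.6 and 225 FPKM in the controls. Its groups overlapped too, with a difference of 0.03 and a 95% interval from -0.09 to 0.15 (limma, adjusted p = 0.68), and the sign of that small difference turned after quantile normalization and without the second control library (-0.01 in both). Both genes lie on chromosome 7, Bbc3 from 16308393 to 16318205 and Bax from 45461697 to 45466898.

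Plk2 encodes a polo-like kinase that p53 induces and that is also an immediate early gene of serum and neuronal activity. It had 9.27, 9.38 and 8.46 FPKM in the libraries labelled Smyd4 shRNA, against 28.0, 29.1 and 28.1 FPKM in the controls. Each labelled library held about the same low level, with 491 to 679 reads, against 1880 to 1999 reads in the controls. The log2 difference of -1.60 ± 0.04 (standard error) had the smallest adjusted p of the 10 genes (limma, adjusted p = 9.5e-08).

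Gadd45a encodes a small stress protein that binds Pcna, Cdkn1a and the kinase Cdk1, and it had 11.2, 10.3 and 10.6 FPKM in the libraries labelled Smyd4 shRNA, against 17.5, 17.9 and 16.9 FPKM in the controls. Btg2 encodes an antiproliferative partner of the CCR4-NOT deadenylase, and it had 3.56, 3.09 and 3.33 FPKM in the labelled libraries, against 5.82, 5.79 and 6.38 FPKM in the controls. For both genes every labelled library lay below every control. The log2 change was -0.68 ± 0.04 for Gadd45a (standard error; limma, adjusted p = 5.8e-06) and -0.77 ± 0.06 for Btg2 (limma, adjusted p = 3.1e-05). Gadd45a overlaps E230016M11Rik on the opposite strand.

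Phlda3 encodes a pleckstrin homology protein that competes with Akt for membrane lipids and so restrains Akt. It had 149, 139 and 135 FPKM in the libraries labelled Smyd4 shRNA, against 148, 152 and 160.2 FPKM in the controls, and the first labelled library lay above the first control. The log2 difference of -0.12 ± 0.04 (standard error) only just passed (limma, adjusted p = 0.048). The call was lost without the second (adjusted p = 0.12) or the third (0.14) labelled library and without the second (0.092) or the third (0.14) control library. It was also lost in limma without a filter on low values (adjusted p = 0.11) and without the mean-variance trend (0.087), while edgeR (adjusted p = 0.002) and DESeq2 (adjusted p = 0.0084) kept it.

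**Figure D2:**
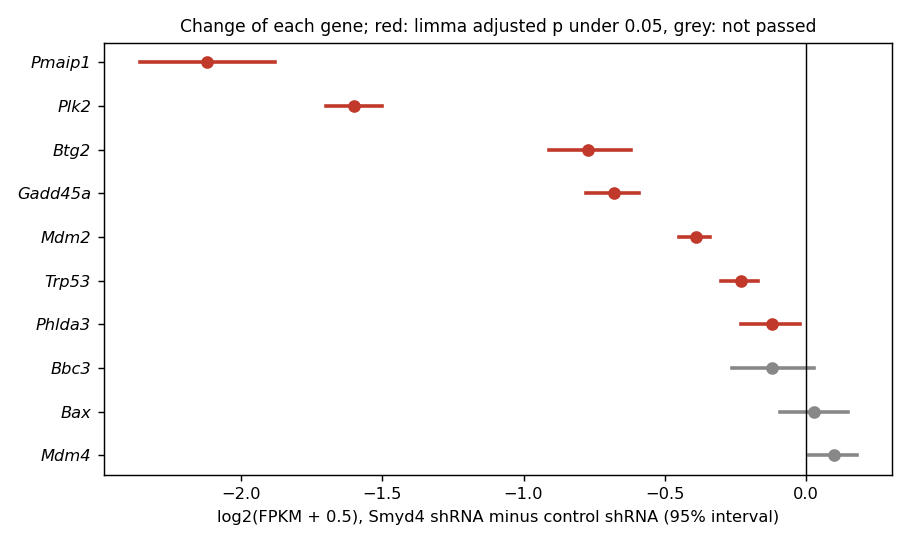
Log2 change of each gene, Smyd4 shRNA minus control shRNA, on the log2(FPKM + 0.5) scale with its 95% interval from limma; red marks an adjusted p under 0.05 and grey genes that did not pass. Pmaip1 (-2.12) and Plk2 (-1.60) stand apart from the rest, and Mdm4 (0.10) is the only gene of the 10 whose interval lies above 0.

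The authors' deposited table, which lists 25.2% of the genes with FPKM values, names 8 of the 10 genes, 7 lower and 1 higher, and does not list Bax and Bbc3. That share is over all 22246 genes, of which only 11325 averaged 1 FPKM or more, as all 10 did. It is therefore not a like background for the 8 of 10, and its shares by direction were not counted. In the authors' deposited table the log2 fold change was -2.47 for Pmaip1, -1.62 for Plk2, -0.80 for Btg2, -0.68 for Gadd45a, -0.40 for Mdm2 and -0.24 for Trp53. Mdm4 stands there at 0.10 (the authors' adjusted p = 0.042) and Phlda3 at -0.12 (the authors' adjusted p = 0.008).

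The order of the 10 levels per length was nearly the same in both groups. In the libraries labelled Smyd4 shRNA it ran Bax, Phlda3, Trp53, Mdm2, Gadd45a, Plk2, Mdm4, Bbc3, Btg2 and Pmaip1, and Plk2 (8.46 to 9.38 FPKM) and Mdm4 (8.36 to 8.76 FPKM) overlapped. In the controls it ran Bax, Phlda3, Trp53, Mdm2, Plk2, Gadd45a, Mdm4, Btg2, Bbc3 and Pmaip1, and Btg2 (5.79 to 6.38 FPKM) and Bbc3 (5.20 to 5.83 FPKM) overlapped. No other neighbours in either order overlapped over the 3 libraries. Of the 45 pairs among the 10 genes, Bbc3 and Phlda3 had the most similar centred profiles, with a root mean square difference of 0.0516 on the log2 scale. Mdm4, Btg2 and Phlda3 lie within 2.81 Mb of each other on chromosome 1, and of these Btg2 and Phlda3 were called lower and Mdm4 did not pass.

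**Figure D3:**
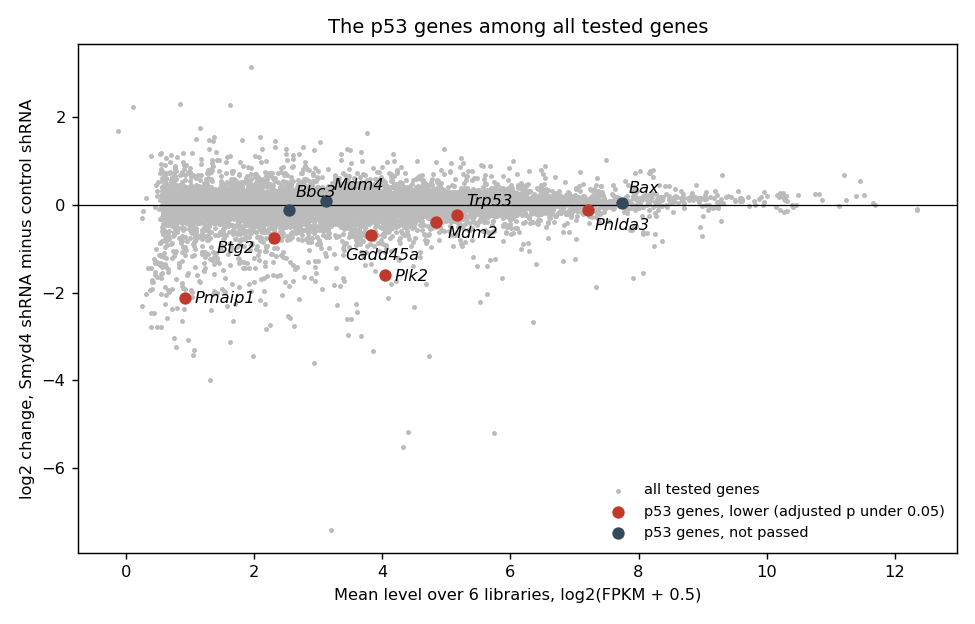
Log2 change (Smyd4 shRNA minus control shRNA) against mean level over the 6 libraries, both from log2(FPKM + 0.5), for all 11325 tested genes in grey and the 10 p53 genes in colour. Pmaip1 and Plk2 lie below most of the cloud, with the 51st and 114th lowest changes, while Bax, Bbc3 and Mdm4 lie within it near 0.

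Promoter sequences, from 250 bases before to 50 after the annotated start, were found for 9 of the 10 genes in RefSeq (GRCm38.p6), 12 promoters in all. They are shown because genes known as p53 targets were among both those that fell and those that did not pass, and the sequences let the letters be compared. A p53 site is known as a pair of decamers with a spacer. Pairs with at most 2 mismatches outside the fixed C and G of each decamer and a spacer of at most 13 bases were found in the promoters of Bax and Gadd45a, 2 of 12 (16.7%), against 4.09% of 32851 promoters. A single exact p53 decamer was found in 4 of 12, those of Bax, Gadd45a, Mdm2 and Trp53, against 8.36% of all promoters. In the first 2 sequences below the capitals mark the decamer pair, and in the third the single decamer.
Bax (chr7:45466849-45467148, minus strand): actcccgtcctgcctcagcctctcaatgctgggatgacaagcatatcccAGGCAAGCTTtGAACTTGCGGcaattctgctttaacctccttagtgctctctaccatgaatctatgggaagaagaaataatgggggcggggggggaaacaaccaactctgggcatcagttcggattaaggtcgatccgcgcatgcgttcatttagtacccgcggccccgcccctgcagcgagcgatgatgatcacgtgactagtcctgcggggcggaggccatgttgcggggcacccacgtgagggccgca
Gadd45a (chr6:67037358-67037657, minus strand): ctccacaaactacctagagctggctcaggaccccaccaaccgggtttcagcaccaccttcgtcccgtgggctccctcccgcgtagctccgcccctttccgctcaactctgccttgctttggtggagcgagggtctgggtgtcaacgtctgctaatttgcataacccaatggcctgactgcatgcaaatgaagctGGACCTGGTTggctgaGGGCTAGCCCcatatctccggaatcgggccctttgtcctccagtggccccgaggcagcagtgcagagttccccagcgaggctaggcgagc
Mdm2 (chr10:117710709-117711008, minus strand): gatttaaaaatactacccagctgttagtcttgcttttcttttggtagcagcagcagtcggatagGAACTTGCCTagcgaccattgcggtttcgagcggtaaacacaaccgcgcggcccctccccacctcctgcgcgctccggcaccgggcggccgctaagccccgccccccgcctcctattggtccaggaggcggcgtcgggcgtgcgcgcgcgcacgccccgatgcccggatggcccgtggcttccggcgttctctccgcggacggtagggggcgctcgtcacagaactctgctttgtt
Of the 2 genes with a decamer pair, Bax did not pass the test and Gadd45a fell, and Plk2 and Btg2 fell with no such letters in this window. The decamer pair began 201 bases before the start of Bax and 56 bases before that of Gadd45a, and each of these pairs had 2 mismatches. Outside the 10 genes, the same search found a pair in 1 of the 2 promoters of Cdkn1a (0 mismatches) and in that of Ccng1 (1 mismatch). Cdkn1a and Ccng1, described below, both fell. They were the only other genes looked at singly, and no target gene that rose was among them. No link between a pair and the direction of change can be read from this. A missing match says only that these letters are not in the window, since p53 sites are known in introns and farther upstream as well.

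The 2 other motifs searched, on both strands, were chosen after the sequences had been read. Because of that choice, the shares set against all promoters are no test of enrichment. The cyclic AMP response element TGACGTCA was present in the promoters of Plk2 and Btg2, 2 of 12 (16.7%), against 1.79% of all promoters, and the capitals mark it below. An NF-kB motif was present in the promoter of Trp53, 1 of 12 (8.33%), against 0.155% of all promoters.
Plk2 (chr13:110394794-110395093, plus strand): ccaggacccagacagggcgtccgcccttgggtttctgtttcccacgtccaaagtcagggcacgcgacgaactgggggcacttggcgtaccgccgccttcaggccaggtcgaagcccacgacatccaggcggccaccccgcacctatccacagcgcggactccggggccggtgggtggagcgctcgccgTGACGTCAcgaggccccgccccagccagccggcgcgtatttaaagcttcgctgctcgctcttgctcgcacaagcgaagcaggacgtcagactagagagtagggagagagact
Btg2 (chr1:134079106-134079405, minus strand): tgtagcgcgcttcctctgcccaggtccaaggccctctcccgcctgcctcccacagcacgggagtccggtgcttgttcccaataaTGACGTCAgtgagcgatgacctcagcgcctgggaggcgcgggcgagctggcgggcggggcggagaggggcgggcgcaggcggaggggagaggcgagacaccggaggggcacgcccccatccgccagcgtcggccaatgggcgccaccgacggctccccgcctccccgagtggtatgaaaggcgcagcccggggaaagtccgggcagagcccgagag
Plk2 and Btg2 were lower in the libraries labelled Smyd4 shRNA, and binding at these letters was not measured.

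The wider set of p53 target genes moved in both directions. Over 4 lists of targets, 47 of the 50 genes in the table were tested, and 11 were higher, 20 lower and 16 did not pass, which is 66% called against 48.3% of all tested genes. Their median log2 change was -0.09, against 0.02 for all tested genes. Falls of at least 1.5-fold were called for 8 of the 47, against 4.87% of all tested genes, and such rises for 2, against 2.04%.

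Of 8 tested targets of cell cycle arrest, 6 were lower, 1 higher and 1 did not pass, which is 87.5% called, against 48.3% of all tested genes (23.3% lower). Their median log2 difference was -0.39. Cdkn1a, the cyclin-dependent kinase inhibitor p21 and best known p53 target, had 86.1, 81.3 and 83.9 FPKM in the libraries labelled Smyd4 shRNA, against 109, 109 and 109 FPKM in the controls (log2 change -0.38; limma, adjusted p = 1.5e-05). Ccng1, which encodes cyclin G1, had 64.9, 63.1 and 66.8 FPKM in the labelled libraries, against 84.1, 86.7 and 85.7 FPKM in the controls (log2 change -0.39; limma, adjusted p = 1.7e-05). Neither gene's groups overlapped, and both changes were close in size to that of Mdm2. The related cyclin gene Ccng2, better known as a target of FoxO factors, fell to 4.56 ± 0.145 FPKM, against 7.44 ± 0.176 FPKM in the controls (limma, adjusted p = 7.4e-06). The gene that rose was Ptprv, a receptor tyrosine phosphatase known as a p53 target in mouse, with 1.81 ± 0.0483 FPKM in the labelled libraries and 0.763 ± 0.0794 FPKM in the controls (limma, adjusted p = 0.0001).

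Of 12 tested targets of apoptosis, 2 were higher, 4 lower and 6 did not pass, and the 50% called lay near the 48.3% of all tested genes. Falls of at least 1.5-fold were called for 4 of the 12, against 4.87% of all tested genes, and such rises for 0, against 2.04%. The death receptor gene Fas fell to 0.774 ± 0.195 FPKM, against 4.68 ± 0.181 FPKM in the controls, a 6.04-fold difference that rested on 24 to 47 reads per labelled library (limma, adjusted p = 2.8e-06). Eda2r, which encodes the ectodysplasin A2 receptor, fell to 4.05 ± 0.166 FPKM, against 7.26 ± 0.0242 FPKM (limma, adjusted p = 3.3e-06). Siva1, which encodes a pro-apoptotic adaptor, rose to 67.5 ± 4.91 FPKM, against 54.5 ± 2.93 FPKM (limma, adjusted p = 0.0033). Trp53i13 had 9.80 FPKM in the labelled libraries and 8.86 FPKM in the controls (limma, adjusted p = 0.026). Its call was lost without the first (adjusted p = 0.081) or second (0.063) labelled library and without the first (0.089) or the third (0.058) control library, and without the first library of either group or the third control the list had 1 higher call. Nor did it pass in limma when low genes were kept (adjusted p = 0.051), in edgeR (adjusted p = 0.058) or in DESeq2 (adjusted p = 0.21). Trp53i13 overlaps Abhd15 on the opposite strand.

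DNA repair and nucleotide supply genes held 1 higher, 1 lower and 5 not passed among 7 tested, 28.6% called against 48.3% of all tested genes. Pcna, the sliding clamp of replication and repair, rose to 151 ± 2.92 FPKM, against 132 ± 4.69 FPKM in the controls (limma, adjusted p = 0.0014); it has processed pseudogenes, so its value is less certain. Rrm2b, the p53-inducible subunit of ribonucleotide reductase, had 4.40 FPKM in the labelled libraries and 4.97 FPKM in the controls (limma, adjusted p = 0.043). That call was lost without the first (adjusted p = 0.12), second (0.07) or the third (0.065) labelled library and without the second (0.13) or the third (0.07) control library. Nor did it pass in limma when low genes were kept (adjusted p = 0.093) or after quantile normalization (adjusted p = 0.092), or in DESeq2 (adjusted p = 0.06). No lower call remained in the list without the first or the third labelled library or without the second or the third control.

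Targets of metabolism, stress and secretion held 7 higher, 9 lower and 4 not passed of 20 tested, 80% called against 48.3% of all tested genes. The tetraspanin gene Cd82 fell to 28.0 ± 1.33 FPKM, against 64.1 ± 0.230 FPKM in the controls (limma, adjusted p = 1.7e-07). Ddit4 and Sesn2, both inhibitors of the growth kinase complex mTORC1 and both also known as genes of the integrated stress response, rose. Ddit4 reached 201 ± 3.49 FPKM, against 132 ± 2.17 FPKM in the controls (limma, adjusted p = 9e-07), and Sesn2 23.1 ± 1.05 FPKM, against 18.3 ± 0.503 FPKM (limma, adjusted p = 0.0003). Cd82 overlaps Gm10804 on the opposite strand and Sesn2 overlaps Gm12981 on its own.

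**Figure D4:**
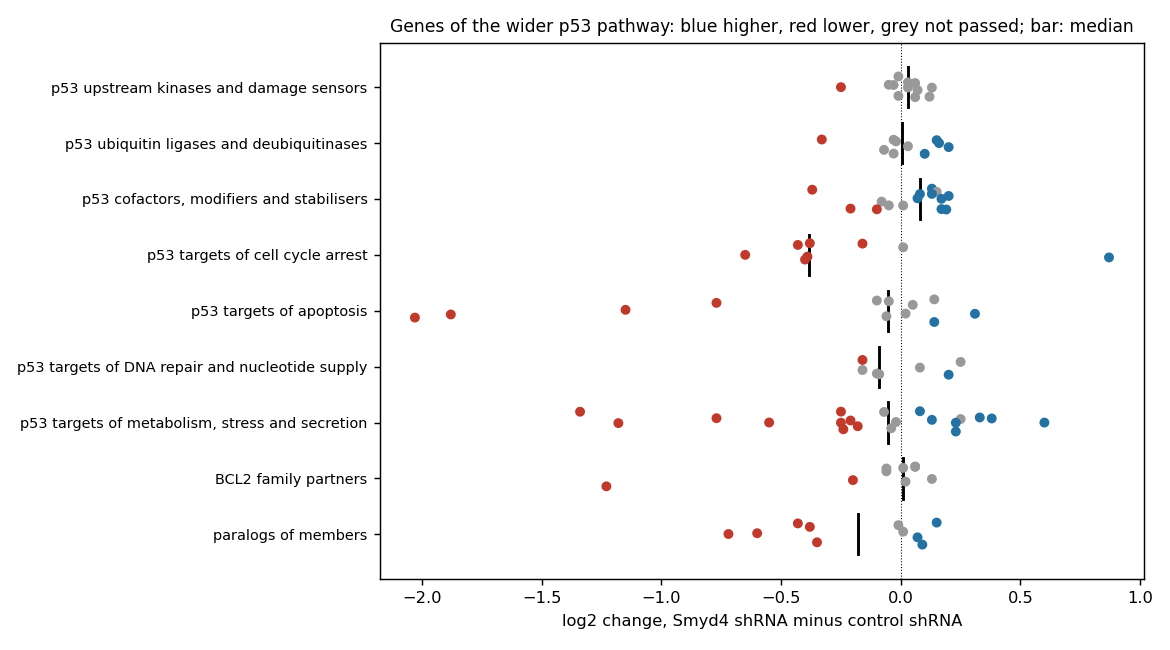
Log2 change (Smyd4 shRNA minus control shRNA) of each tested gene of 9 lists of the p53 pathway, 1 point a gene, blue for higher, red for lower and grey for not passed in limma; the bar is the list's median. The medians run from -0.39 for cell cycle arrest targets to 0.08 for cofactors, and that of the upstream kinases is 0.03.

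Of 12 kinases and sensors of DNA damage, among them Atm, Atr, Chek1 and Chek2, 0 were higher (limma; 0 at an unadjusted p under 0.05, 1 in edgeR and 1 in DESeq2, Atr in both), 1 was lower and 11 did not pass, 8.33% called against 48.3% of all tested genes. The lower gene was Hipk2, a kinase that phosphorylates p53, with 9.23 ± 0.601 FPKM in the labelled libraries and 11.1 ± 0.223 FPKM in the controls (limma, adjusted p = 0.0031); it overlaps Tbxas1 on the opposite strand. Without the second labelled library 1 gene was called higher in limma, Chek1. Of 10 tested ubiquitin ligases and deubiquitinases, 4 were higher, 1 lower and 5 did not pass, which at 50% called is near the share of all tested genes. Usp7, which removes ubiquitin from p53 and Mdm2, rose to 18.6 ± 0.683 FPKM, against 16.5 ± 0.326 FPKM in the controls (limma, adjusted p = 0.0057). Usp10, another deubiquitinase of p53, had 11.2 FPKM in the labelled libraries and 9.67 FPKM in the controls (limma, adjusted p = 0.015). Stub1, a chaperone-linked ligase, rose to 46.7 FPKM, against 42.0 FPKM in the controls (limma, adjusted p = 0.0014). Rchy1, the ligase Pirh2 that p53 induces, fell to 5.95 ± 0.246 FPKM, against 7.59 ± 0.363 FPKM (limma, adjusted p = 0.00091). Without the first labelled library 2 of this list were called higher, and Usp10 was lost (adjusted p = 0.051). Stub1 and Rchy1 overlap other genes.

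Among 15 tested cofactors, modifiers and stabilisers of p53, 8 were higher, 3 lower and 4 did not pass, 73.3% called against 48.3% of all tested genes. The acetyltransferase genes Kat5 and Ep300, whose products acetylate p53, fell: Kat5 to 12.6 ± 0.602 FPKM, against 16.5 ± 0.730 FPKM in the controls (limma, adjusted p = 0.00033), and Ep300 to 9.88 ± 0.0107 FPKM, against 11.5 ± 0.524 FPKM (limma, adjusted p = 0.0027). Npm1, a nucleolar protein that can bind Mdm2, rose to 355 ± 7.52 FPKM, against 315 ± 4.31 FPKM (limma, adjusted p = 0.001), and Wrap53, the gene next to Trp53, to 9.84 ± 0.0642 FPKM, against 8.56 ± 0.373 FPKM (limma, adjusted p = 0.0043; 0.075 in DESeq2). Npm1 has processed pseudogenes, Kat5 overlaps Rnaseh2c on the opposite strand, and Ep300 overlaps Gm22067 on its own. Smyd2, the SMYD family member known to methylate p53, stood at 17.5 FPKM in the labelled libraries and 17.3 FPKM in the controls and did not pass (limma, adjusted p = 0.86; 95% interval of the log2 difference -0.12 to 0.15). The count of higher genes fell to 4 without the first or second labelled library and without the first or second control library. Cdkn2a was not analysed here.

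Of 9 tested partners of Bax, Bbc3 and Pmaip1 in the BCL2 family, 0 were higher (limma; 2 at an unadjusted p under 0.05, 1 in edgeR and 0 in DESeq2), 2 were lower and 7 did not pass, 22.2% called against 48.3% of all tested genes. In edgeR and in DESeq2 3 were lower, the third being Bik, which lay under the filter of limma. Bcl2l11, which encodes the BH3-only protein Bim, had 1.10, 1.29 and 1.01 FPKM in the libraries labelled Smyd4 shRNA, against 3.29, 3.52 and 3.19 FPKM in the controls (log2 change -1.23; limma, adjusted p = 1e-05). Bcl2l1, the survival gene of Bcl-xL, fell to 13.8 ± 0.451 FPKM, against 15.9 ± 0.869 FPKM (limma, adjusted p = 0.0081). Bik, which encodes another BH3-only protein and was named after its values were seen, had 0.203, 0.294 and 0.256 FPKM in the labelled libraries, against 1.06, 0.716 and 0.753 FPKM in the controls. The groups did not overlap, and the difference rested on 5 to 7 reads per labelled library and 16 to 24 per control library (edgeR, adjusted p = 0.00047; DESeq2, adjusted p = 0.01). Mcl1, the partner of Noxa, had 84.96 ± 0.945 FPKM in the labelled libraries and 81.3 ± 1.68 FPKM in the controls and did not pass (limma, adjusted p = 0.073).

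Of the 10 tested paralogs of the GADD45, PLK, BTG and PHLDA genes, 3 were higher, 5 lower and 2 did not pass, 80% called against 48.3% of all tested genes. Phlda1 fell to 9.19 ± 0.581 FPKM, against 14.2 ± 0.799 FPKM in the controls (limma, adjusted p = 6.8e-05), and Btg3 to 13.5 ± 0.345 FPKM, against 17.7 ± 0.491 FPKM (limma, adjusted p = 5.5e-05). Gadd45g stood at 53.8 FPKM in the labelled libraries and 48.3 FPKM in the controls (limma, adjusted p = 0.016), the opposite direction to Gadd45a. Gadd45b fell as Gadd45a did, to 8.76 FPKM, against 14.65 FPKM in the controls (limma, adjusted p = 0.00018). Btg1 stood at 51.0 FPKM in the labelled libraries and 48.5 FPKM in the controls (limma, adjusted p = 0.037). The Gadd45g call was lost without the first labelled library (adjusted p = 0.053), the first control (0.055) or the third control (0.052), and no higher call remained in the list in these 3 refits. The Btg1 call was lost in each of the 6 refits that leave out 1 library: the first (adjusted p = 0.072), second (0.063) or the third (0.097) labelled library and the first (0.1), second (0.056) or the third (0.095) control. It was lost too in limma after quantile normalization (adjusted p = 0.097) and without the trend (adjusted p = 0.079), and in edgeR (adjusted p = 0.051). In the refits without the second library of either group 1 higher call remained, and it was Gadd45g.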

How the data were processed

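RNA was extracted with Trizol and libraries were made with Illumina protocols, per the labels' protocols. TopHat2 2.0.9, Bowtie2 2.0.6 and build GRCm38 are named per the submitters' processing notes; no source used here gives the counter, the annotation or the use of strand. The FPKM values were deposited by the authors for 22246 genes. The authors' deposited comparison table holds a normalized signal (from the values, reads divided by 1 size factor per library), a log2 fold change, and p-values and adjusted p-values for 5616 genes, all with an adjusted p of at most 0.0499. FPKM times length over signal was 1 constant, so the FPKM share those size factors.

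Values were compared as log2(FPKM + 0.5) with limma 3.58.1 (trend) in R 4.3.3, for genes averaging 1 FPKM or more, with Benjamini-Hochberg adjustment over all 11325. A change on this scale understates that of low genes. Whole reads were recovered as multiples of 1 step per library: 100% of values came out whole within 0.01, with lengths from the authors (5616 genes), the annotation (13408) or the smallest length possible (3222, among them Bax and Bbc3, whose reads are then lower bounds). Annotation lengths were kept only where they gave whole values, and the smallest lengths were chosen to do so. The 100% therefore does not check those lengths. On the recovered reads edgeR 4.0.16 called 6822 of 13773 genes, and DESeq2 1.42.0 was a further alternative. Totals were 20755667 to 26387534 reads per library.

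Symbols were assigned by Ensembl ID (22134 matched); Cop1 and Kmt5a were listed under older symbols. Coordinates are from the authors' table, or from GENCODE M21 for genes it does not list; promoters are from RefSeq. All 10 genes, Cdkn1a and Ccng1 are named. From each other list the 4 genes with the smallest adjusted p among those passing are named, up to 2 per direction first, or the 2 with the highest mean. Of the genes so chosen, 1 is not reported here. Smyd2, Mcl1, Atr, Chek1, Bik, Gadd45b and the single cell type markers were named after their values were seen. The genes and lists were chosen with earlier results of these data known. The deviations of same-numbered libraries from their group means did not correlate (-0.032, 0.018 and 0.007), so the numbers were not taken as pairs.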

Additional observations from a re-analysis of the deposited data

How the results depend on the processing

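Across 16 alternatives, 31 of 40 genes, Smyd4 included, kept their direction and side of the threshold in every setting where they could be tested. Trp53, Mdm2, Plk2 and Gadd45a were among them, and Pmaip1 and Btg2 have too low a mean for a filter at 5 FPKM. Apart from the 10 p53 genes, Smyd4, Cdkn1a and Ccng1, the 40 were named for passing with the smallest adjusted p. That choice favours calls that hold. Among the 10 p53 genes the exceptions were Mdm4, with a log2 change of 0.11 after quantile normalization, 0.10 in edgeR and 0.10 in DESeq2 past the threshold, which made 1 gene of the 10 called higher in each, Bax, reversed to -0.01 after quantile normalization, and Phlda3, not passed at -0.12 without a filter and -0.12 without the trend. With the replicate number as a block the calls of Phlda3 (-0.12; limma, adjusted p = 0.086), Trp53i13 (0.14; limma, adjusted p = 0.051) and Btg1 (0.07; limma, adjusted p = 0.083) were lost, and higher calls among cofactors were 5 and among apoptosis targets 1; the block moved the other counts of the lists by no more than 1.5 times. Leaving out 1 library gave from -0.01 to 0.08 for Bax and from -0.17 to -0.09 for Phlda3.

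Small list counts moved as follows, with the cause not tested. The shares of all tested genes called in each setting are not set beside them, so a move may not be particular to a list. After quantile normalization higher calls were 2 among upstream kinases, 2 among repair genes, 1 in the BCL2 family and 1 among paralogs, and lower calls were 2 among ubiquitin ligases and 0 among repair genes. Without a filter higher calls were 3 among cofactors, 1 among apoptosis targets and 1 in the BCL2 family, and lower calls among repair genes 0. With a filter at 5 FPKM, which tests fewer genes, higher arrest targets were 0, and lower calls were 1 for apoptosis, 0 for repair and 1 for the BCL2 family. Without the trend higher calls were 2 for repair and 1 for paralogs. In edgeR higher calls were 1 for upstream kinases and 1 for the BCL2 family, and lower repair calls 2. In DESeq2 higher calls were 1 for upstream kinases, 4 for cofactors and 1 for apoptosis, and lower repair calls 0. Leaving out 1 library gave 0 to 1 higher upstream kinases, 2 to 4 higher ubiquitin ligases, 4 to 6 higher cofactors, 1 to 2 higher apoptosis targets, 0 to 1 lower repair genes and 0 to 2 higher paralogs. Depth limits Pmaip1 and Fas, with 18 to 36 and 24 to 47 reads per library labelled Smyd4 shRNA, and no group has more than 3 libraries.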
